A study of Mus musculus with 127 samples.

Results

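Genes whose products build ribosomes were followed in blood stem and progenitor cells kept in culture with or without bacterial ligands. The set was a list of 44 ribosome biogenesis factors, chosen with earlier results of these data known. They were matched by symbol to the rows of the count table, and 43 of the 44 were found among its 23366 genes. Noc2l, which acts on the large subunit, was not analysed here. The 43 members fell into 5 roles: 3 subunits of RNA polymerase I, 6 proteins of small nucleolar ribonucleoproteins (snoRNPs) or of rRNA modification, 15 factors of the small subunit, 14 factors of the large subunit and 5 nucleolar proteins with several functions.

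Ribosome assembly starts in the nucleolus, where RNA polymerase I transcribes the ribosomal DNA into a long precursor. SnoRNPs guide the methylation and pseudouridylation of this precursor, and processome factors cleave it and fold it into a small and a large subunit, which are then exported and finished in the cytoplasm. Many of these factors are known as targets of Myc, whose protein binds the E-box motif. Haematopoietic stem cells in the marrow are known for a low rate of protein synthesis compared with their progeny.

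The cells had been sorted by surface markers from mouse bone marrow into 3 types, called LT (stem cells with long-term repopulating capacity), ST (their short-term counterparts) and MPP (multipotent progenitors). Bulk libraries of their polyadenylated RNA were made by SMART-seq2, which copies whole transcripts from few cells. In HSPC media with LPS (100 ng/ml), a ligand of Toll-like receptor Tlr4, and Pam3csk4 (1 ug/ml), a ligand of Tlr2, the cells of 3 young mice (numbers 1 to 3) and 1 old mouse (number 2) were followed over 0, 0.5, 1, 2, 4, 8 and 12 h. The same media without ligand were used for another young mouse and another old mouse, both numbered 4, with samples taken after 0, 2, 4 and 8 h. The labels give age only as young or old and name no strain, sex or genotype. The labels put the ligands also on the 0 h libraries of 3 animals (young mouse 1, young mouse 2, old mouse 2), apart from some LT repeats of old mouse 2, and all 0 h libraries were read as 1 baseline. Only 1 old mouse was stimulated, so its course has no test of its own. This mouse was pooled with young mice 1 to 3 where the courses with and without ligand were tested over 2 to 8 h. Every unstimulated comparison rests on 1 young and 1 old mouse.

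The 108 libraries, each of 1 mouse, cell type and time, held 990801 to 11764630 counts (median 4200713), and 6241 to 14096 genes had a count. Between 0 and 8 h in stimulated LT this number went from 10101 to 6241 in young mouse 1. Young mouse 2 went from 12319 to 7547, and young mouse 3 only from 12155 to 11501. Stem and progenitor markers were present, with a median of 273 CPM (counts scaled to 1000000 per library) for Kit and 162 CPM for Procr in LT. Flt3, a progenitor marker, had medians of 4.4 CPM in LT, 90.2 CPM in ST and 232 CPM in MPP. Slamf1, often used to define LT, had a median of 2.8 CPM in LT. The 6 neutrophil granule genes together (S100a8, S100a9, Ngp, Camp, Ltf, Lcn2) took 0.0025% to 7.86% of a library's counts, with the lowest shares in young mouse 3, and the T and NK cell markers summed to medians of 4.94 to 14.5 CPM in the 3 cell types. Erythroid markers summed to medians of 234 to 319 CPM, macrophage markers to 171 to 244 CPM and B cell markers to 71.6 to 89.4 CPM. Medians were 48.6 to 107 CPM for megakaryocyte markers and 6.91 to 16.8 CPM for stromal markers.

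Promoter windows (from 250 bases before to 50 bases after the annotated start, RefSeq on GRCm38.p6) were found for 39 of the 43 members, and for all but Fbl, Bop1, Npm1 and Rrp12. They are shown to describe letters that members share, and no link of these letters to the changes in RNA was tested. The E-box CACGTG, read on both strands, stood in the windows of 9 of the 39 members (23.1%), against 8.09% of all 27025 genes with a window. The GC box GGGCGG stood in 29 members (74.4%) against 38.2% of genes, the ETS core CCGGAAG in 12 (30.8%) against 9.93%, and CCAAT in 14 (35.9%) against 41.1%. These motifs were chosen after counts of them and of other short motifs had been seen, so the shares are a description with no test. The 27025 genes were taken whether or not they were expressed in these cells. No motif is contained in another, but some can share letters at their ends. The 9 members with an E-box are shown as 30 bases of the coding strand, 5′ to 3′, with the E-box in capitals.
Imp4 (chr1:34439696-34439725, plus strand): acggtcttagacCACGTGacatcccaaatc
Nop2 (chr6:125131811-125131840, plus strand): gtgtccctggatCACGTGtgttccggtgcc
Grwd1 (chr7:45830740-45830769, minus strand): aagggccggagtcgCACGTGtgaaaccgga
Ltv1 (chr10:13193092-13193121, minus strand): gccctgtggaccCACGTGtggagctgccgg
Utp20 (chr10:88826765-88826794, minus strand): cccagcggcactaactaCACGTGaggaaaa
Pes1 (chr11:3963965-3963994, plus strand): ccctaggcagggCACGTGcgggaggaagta
Mybbp1a (chr11:72441347-72441376, plus strand): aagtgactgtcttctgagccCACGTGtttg
Tsr1 (chr11:74898092-74898121, plus strand): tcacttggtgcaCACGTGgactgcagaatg
Wdr43 (chr17:71616220-71616249, plus strand): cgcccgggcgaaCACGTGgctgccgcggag
In Imp4 and Nop2 the E-box lay upstream, with its first base at -121 and -60 from the start, and in the other members it lay downstream, from position 3 in Pes1 to position 41 in Mybbp1a.

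Grwd1, Nop58 and Ncl are described below as members that passed a test. In the 150 bases before their starts Nop58 and Ncl share the GC box, and Grwd1 has an ETS core instead. The 150 bases before their starts are shown in the same way, with an ETS core in capitals for Grwd1, and GC boxes for Nop58 and for Ncl, where they lie on the other strand and read CCGCCC.
Grwd1 (chr7:45830790-45830939, minus strand): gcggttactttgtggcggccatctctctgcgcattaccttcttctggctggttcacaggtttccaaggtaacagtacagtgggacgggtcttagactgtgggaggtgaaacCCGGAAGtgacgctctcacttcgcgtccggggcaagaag
Nop58 (chr1:59684856-59685005, plus strand): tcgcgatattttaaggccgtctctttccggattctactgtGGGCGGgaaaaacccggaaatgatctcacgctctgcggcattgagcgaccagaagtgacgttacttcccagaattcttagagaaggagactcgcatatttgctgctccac
Ncl (chr1:86359456-86359605, minus strand): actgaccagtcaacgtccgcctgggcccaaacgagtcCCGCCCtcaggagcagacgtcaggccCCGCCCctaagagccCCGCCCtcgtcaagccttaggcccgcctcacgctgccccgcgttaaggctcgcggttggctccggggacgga
The letters describe the reference genome only, and no binding was measured.

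Taken as a sum, the members took a smaller share of the RNA as culture went on, and the step from 2 to 4 h was lower in every course. In stimulated LT of young mice 1 to 3 the 43 members took 0.506%, 0.512% and 0.608% of a library's counts at 0 h. Over the 12 libraries at 0 to 2 h the share ran from 0.237% to 0.626% with a median of 0.523%, and over the 9 libraries at 4 to 12 h from 0.144% to 0.354% with a median of 0.265%. The lowest early library was young mouse 1 at 2 h, which had 6814 detected genes, and apart from it the LT ranges did not overlap. ST went from 0.379% to 0.596% (median 0.512%) at 0 to 2 h to 0.204% to 0.343% (median 0.277%) at 4 to 12 h, and these ranges did not overlap. MPP went from 0.421% to 0.786% (median 0.624%) to 0.158% to 0.492% (median 0.362%), where young mouse 1 early and young mouse 3 late overlapped. In bulk RNA, fewer cells of a type and less RNA per cell cannot be told apart, and a share of counts also moves with every other gene.

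The step from 2 to 4 h went down in all 18 courses, 6 mice with 3 cell types each, whether stimulated or not. The ratio of the share at 4 h to that at 2 h had a median of 0.642 and ran from 0.543 to 0.987. The highest ratio was that of young mouse 1 LT, which was already low at 2 h. From 0 to 2 h the share was lower in 13 of 18 courses (median ratio 0.917, 0.464 to 1.05), and from 4 to 8 h in 16 of 18 (median ratio 0.855, 0.616 to 1.05). These steps were chosen after seeing the data, and the 3 cell types of a mouse are not separate replicates, so no test is given.

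**Figure D1:**
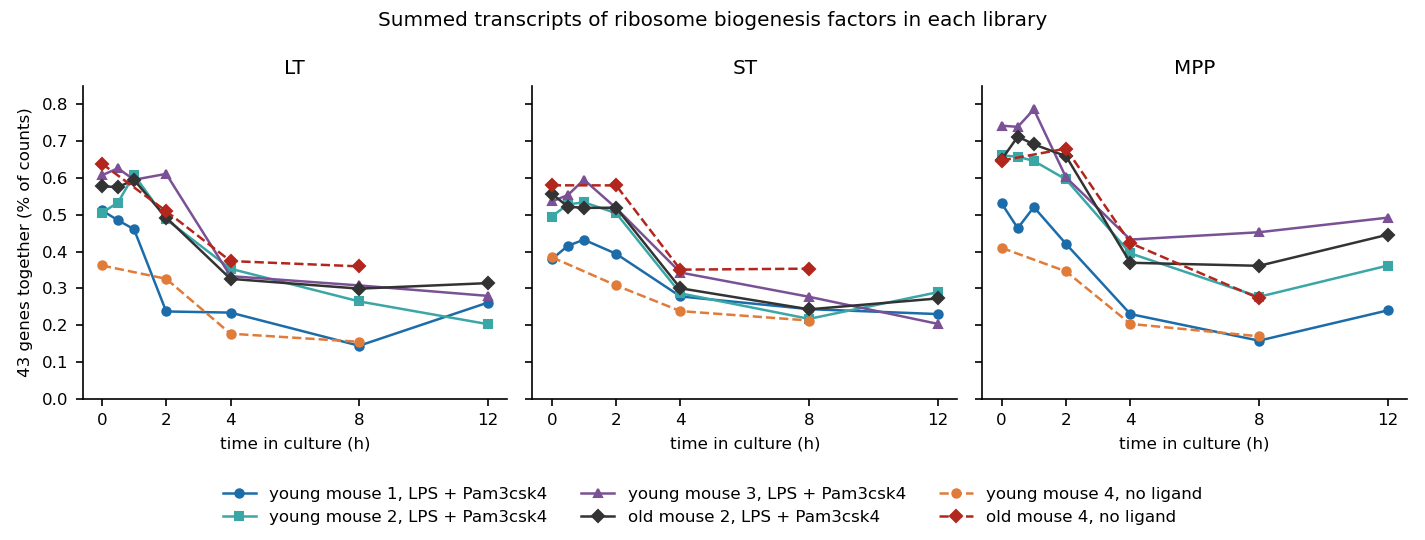
Share of counts taken by the 43 members (percent, vertical axis) against hours of culture, a panel for each cell type and a line for each mouse. All 18 lines go down from 2 to 4 h, the unstimulated mice included.

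In LT the lower late share was also seen in the mouse whose number of detected genes moved least. Young mouse 3, whose LT libraries had 11501 to 12283 detected genes throughout and whose granule share stayed between 0.0025% and 0.0263%, held a share of 0.608%, 0.626%, 0.595%, 0.611%, 0.333%, 0.308% and 0.280% at 0, 0.5, 1, 2, 4, 8 and 12 h. The first 4 of its libraries lay close together, as did the last 3. Without Npm1 and Ncl the other 41 members of the same mouse went from 0.397% at 0 h and 0.428% at 2 h to 0.227% at 4 h. Its MPP libraries had 12890 to 13502 detected genes and a mean share of 0.459% from 4 h on against 0.742% at 0 h. In ST its detected genes stayed between 12336 and 12736 up to 8 h and were 8346 at 12 h.

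Granule RNA moved the other way in most stimulated courses. Its mean share from 4 h on was above that at 0 h in 10 of 12 stimulated courses and in 2 of 6 without ligand. MPP of young mouse 1 had 4.40% at 0 h and 7.33% from 4 h on, MPP of young mouse 2 had 2.07% and 3.54%, and MPP of young mouse 3 had 0.0099% and 0.0198%. The members' mean share from 4 h on was below that at 0 h in each of the 18 courses, and the part of granule RNA in this was not tested.

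Each role had a lower median share late than at 0 h. The 6 snoRNP and modification proteins took a median of 0.0852% of counts in LT at 0 h, 0.101% at 0.5 to 2 h and 0.0338% at 4 to 12 h. The 15 small subunit factors took medians of 0.0903%, 0.0984% and 0.0551%, and the 14 large subunit factors 0.105%, 0.104% and 0.0523%. The 5 multifunctional proteins took 0.262%, 0.246% and 0.129%. The 3 polymerase subunits took 0.0113%, 0.0105% and 0.0080% in LT, and 0.0201%, 0.0124% and 0.0030% in ST. Their ranges in LT at 4 to 12 h (0% to 0.0174%) and at 0.5 to 2 h (0.0003% to 0.0194%) overlapped.

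Early stimulation, the mean of 0.5, 1 and 2 h against 0 h, called none of the 43 members in any cell type, by edgeR's quasi-likelihood test with Benjamini-Hochberg adjustment over all genes at 0.05. At an unadjusted p under 0.05 the count was also 0 in each cell type, and DESeq2 and limma voom called 0. All genes tested were called at 0.322% in LT, 0.263% in ST and 0.227% in MPP. The median log2 change of the members was -0.10 in LT, 0.15 in ST and -0.09 in MPP, against -0.27, -0.18 and -0.16 over all genes tested. Members higher in each of the 3 mice in LT were Nop58, Utp20, Heatr1, Wdr75, Bysl, Ltv1 and Rrp12, or 16.3% of the members against 11.3% of all genes, and 5 members (Polr1b, Nat10, Utp15, Noc4l and Wdr12) were lower in each, 11.6% against 16.9%. In ST 8 members were higher (18.6% against 13.5%) and 7 lower (16.3% against 21.5%), and in MPP 3 were higher (6.98% against 14.4%) and 17 lower (39.5% against 34.3%). These shares lay near those of all genes. In LT, Nop58, a core protein of box C/D snoRNPs, went from 161 ± 55.4 CPM (mean ± SD, n = 3) at 0 h to 264 ± 67.1 CPM over 0.5 to 2 h, a change that did not pass the test. From 0 to 2 h, Nop58 was lower in only 3 of the 18 courses, while Polr1b was lower in 15.

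Late stimulation, the mean of 4, 8 and 12 h against 0 h, called Npm1 and Grwd1 lower in LT, Grwd1 lower in ST, and no member in MPP. Most other members had negative changes that did not pass on their own. In LT, 39 of 43 changes were negative, with a median of -0.98 against -0.44 over all genes tested, of which 64.0% were negative. Of the members 2 were called lower and 0 higher, against 2.27% of all genes called lower (8 members at an unadjusted p under 0.05). ST had 39 of 43 negative, a median of -0.85 against -0.42, and 1 member called lower against 1.07% of all genes. MPP had 40 of 43 negative, a median of -0.80 against -0.26, and 0 called against 0.117% of all genes called lower (4 at an unadjusted p under 0.05). Such a contrast treats the libraries of 1 mouse at several times as separate samples. With the mouse as a block, 4 members were called lower in LT (Npm1, Grwd1, Ncl and Nop58), 3 in ST (Grwd1, Npm1 and Ncl) and 2 in MPP (Npm1 and Ncl), against 8.59%, 8.04% and 4.92% of all genes called in either direction. With the block, the members were thus called at shares near those of all genes. The calls were lost with log2 detected genes as a covariate, which left 0 members called in LT, ST and MPP and medians of -0.38, -0.15 and -0.36, and in LT also without young mouse 2 (0 called, 8 without young mouse 3, 1 without young mouse 1).

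Counted by mouse instead, from mean CPM, 27 of 43 members were lower late than at 0 h in each of the 3 mice in LT (62.8% against 21.0% of all genes), 27 in ST (62.8% against 23.9%) and 38 in MPP (88.4% against 37.2%). Ltv1 in LT was the only member higher late in each mouse in any of the 3 cell types (2.33% of members in LT against 10.8% of all genes). These shares are a description, since the members were chosen with earlier results of these data known. In young mouse 3 LT, with 11501 to 12283 detected genes, 39 of 43 members were lower and their median change was -1.01 on the log2(CPM + 1) scale, against 0 over all genes.

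**Figure D2:**
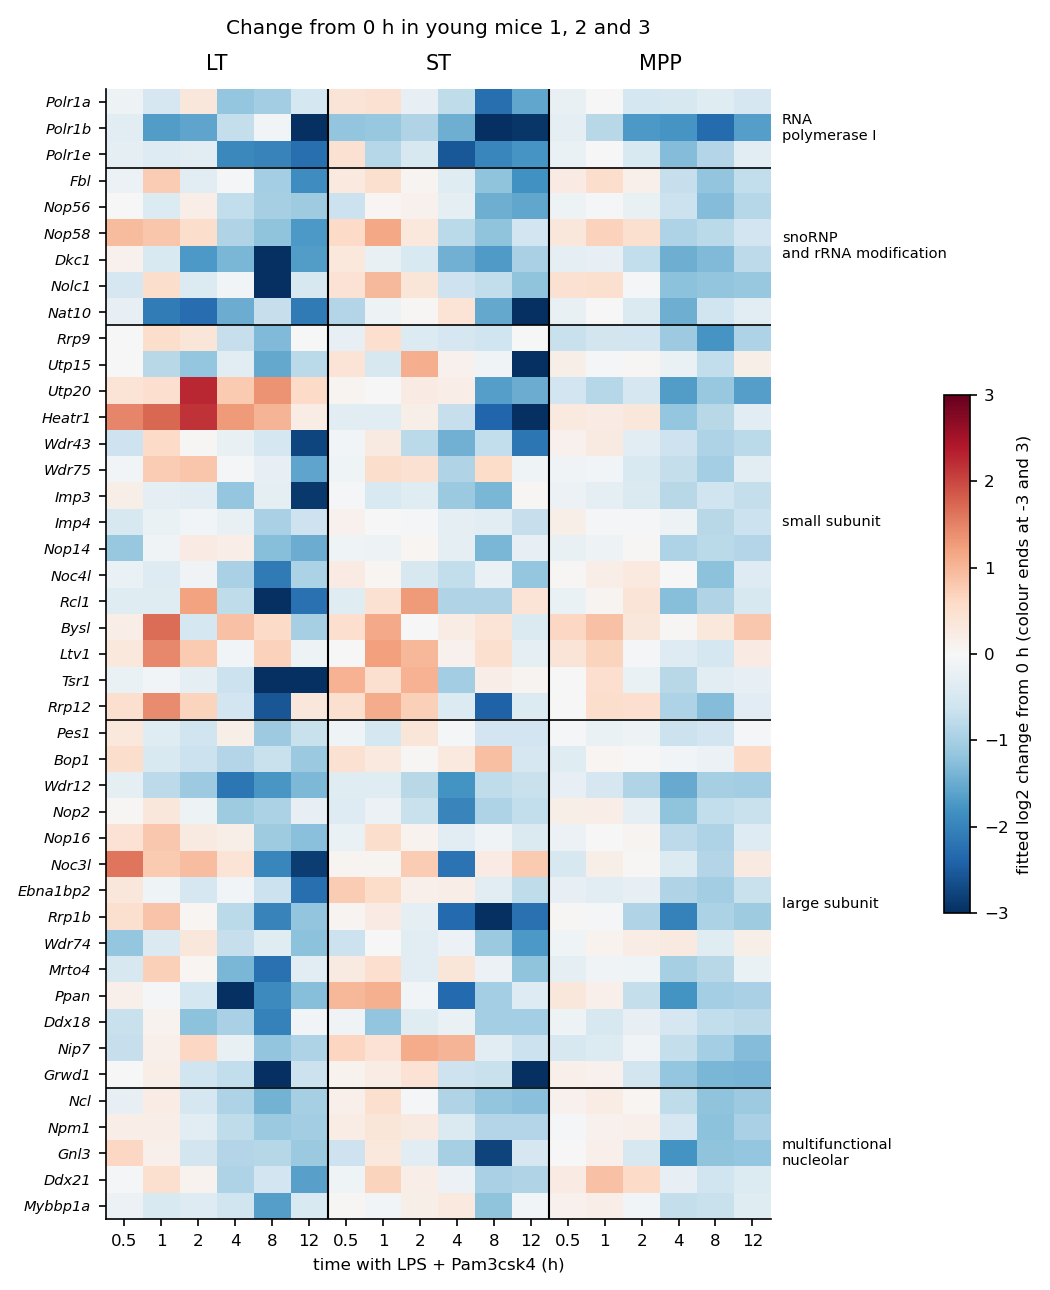
Change of each of the 43 members from 0 h (colour, log2 change fitted by edgeR over young mice 1 to 3, with colours ending at -3 and 3) by cell type and hour, with members ordered by role. Most cells turn to the lower side at 4 h and after, and Utp20 and Heatr1 have positive changes in LT up to 12 h, none called.

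A contrast of 4 to 12 h against 0.5 to 2 h, added after seeing the data, put the same fall against the early libraries. It called 3 members lower in LT (Nop58, Npm1 and Grwd1, against 1.77% of all genes called lower), 4 in ST (Npm1, Ncl, Nop58 and Grwd1, against 1.82%) and 3 in MPP (Npm1, Ncl and Nop58, against 0.431%), and none higher. Negative changes were found for 42, 43 and 42 of the 43 members, with medians of -1.01, -0.93 and -0.69 against -0.17, -0.28 and -0.14 over all genes. With the mouse as a block the counts were 5, 7 and 3, and with detected genes as a covariate 5, 4 and 3. The shares of all genes called under these settings are not given here, so these counts do not set the members apart from other genes. Without young mouse 2 no member was called in any of the 3 cell types, when only 0.0435% to 0.0726% of all genes were called.

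Among the multifunctional proteins, Npm1, a nucleolar histone chaperone that shuttles ribosomal subunits, was called lower late against early in each cell type. In LT its level was 1206, 1284 and 1160 CPM at 0 h in young mice 1, 2 and 3. Over 0 to 2 h it ran from 476 to 1585 CPM (median 1245), and over 4 to 12 h from 326 to 867 CPM (median 637). Only young mouse 1 at 2 h, with 476 CPM, made these ranges overlap. In ST it ran from 792 to 1362 CPM (median 1004) and then from 364 to 687 CPM (median 538), and in MPP from 1205 to 1706 CPM (median 1435) and then from 334 to 1139 CPM (median 739), with no overlap in either. The late change from 0 h was -0.98 ± 0.25 in LT (log2 ± SE, edgeR adjusted p = 0.0259), -0.72 ± 0.26 in ST (adjusted p = 0.116, and 0.0169 with the block) and -0.90 ± 0.25 in MPP (adjusted p = 0.0998, and 0.00194 with the block). Late against early it was -1.01 ± 0.19 in LT (edgeR adjusted p = 0.00109), -1.01 ± 0.19 in ST (9.96e-04) and -0.99 ± 0.19 in MPP (0.00138). Npm1 was lower at 4 h than at 2 h in all 18 courses. The LT call against 0 h was lost without libraries under 8000 detected genes (-0.66, adjusted p = 0.306), with no filter on low counts (-0.93, 0.0602), with detected genes as a covariate (-0.68, 0.0869), in the compared groups alone (-0.99, 0.649), without young mouse 1 (-0.78, 0.11) and without young mouse 2 (-0.998, 0.472). The LT call against the early hours was lost in the compared groups alone (-1.01, adjusted p = 0.266) and without young mouse 2 (-0.89, 0.397).

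Ncl, nucleolin, which binds the rRNA precursor and the polymerase I template, fell by a similar size. In ST it ran from 506 to 1008 CPM (median 746) at 0 to 2 h and from 179 to 470 CPM (median 255) at 4 to 12 h. In MPP it ran from 681 to 1232 CPM (median 904) and then from 205 to 619 CPM (median 373). Neither pair of ranges overlapped. LT ran from 137 to 993 CPM (median 863) and then from 74.4 to 606 CPM (median 406), and here the ranges did overlap. Late against early, the change was -1.32 ± 0.28 in ST (edgeR adjusted p = 0.00493) and -1.15 ± 0.28 in MPP (adjusted p = 0.0244), both lower, and -0.93 ± 0.28 in LT (adjusted p = 0.0551, and 0.00348 with the block). Against 0 h its changes were -1.11, -1.12 and -1.02 in LT, ST and MPP, with adjusted p of 0.0809, 0.0928 and 0.288, or 0.0044, 0.00456 and 0.0163 with the block. The other multifunctional members, the helicase Ddx21, nucleostemin (Gnl3) and Mybbp1a, had late changes of -1.43 to -0.33 in the 3 cell types, none called.

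Of the snoRNP proteins, Nop58 was called lower late against early in each cell type, from early levels that were often above those at 0 h. In young mouse 3 LT it stood at 199, 330, 393, 301, 69.8, 86.0 and 49.96 CPM at 0, 0.5, 1, 2, 4, 8 and 12 h. The values at 0.5 to 2 h were above the 0 h value and those from 4 h on were below it. In young mouse 2 LT the values were 187, 96.4, 301, 294, 147, 75.5 and 54.2 CPM, and in young mouse 1 LT 97.5, 523, 77.9, 58.7, 15.1, 42.7 and 37.2 CPM, so that the early rise was not in every library. In ST it ran from 147 to 363 CPM (median 206) over 0 to 2 h and from 40.0 to 132 CPM (median 68.0) over 4 to 12 h, with no overlap. MPP ran from 156 to 408 CPM (median 246) and then from 57.6 to 164 CPM (median 112), with a small overlap. Late against early, Nop58 was lower by edgeR in LT (-2.04 ± 0.35, adjusted p = 2.56e-04), in ST (-1.54 ± 0.34, 0.00767) and in MPP (-1.28 ± 0.34, 0.0488). Against 0 h the change was -1.28, -0.86 and -0.77 with adjusted p of 0.103, 0.359 and 0.78, and in LT it passed with the block (-1.28, adjusted p = 0.0328). The MPP call against the early hours was lost at nearly the same size with no filter on low counts (-1.23, adjusted p = 0.134), with 1 repeat in place of the sum (-1.24, 0.108) and without young mouse 3 (-1.25, 0.447). The LT call was lost with limma voom (-1.82, adjusted p = 0.0584) and in the compared groups alone (-2.05, 0.201), and the ST call without young mouse 3 (-1.39, 0.180).

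Nop56, the partner of Nop58 in box C/D snoRNPs, ran in MPP from 162 to 356 CPM (median 254) over 0 to 2 h and from 20.6 to 195 CPM (median 163) over 4 to 12 h. In LT it ran from 79.8 to 304 CPM (median 208) and then from 32.6 to 171 CPM (median 117). Its late changes from 0 h were -0.93, -1.10 and -0.93 in LT, ST and MPP, with adjusted p of 0.231, 0.141 and 0.467, where limma voom called it lower in ST (-1.17, adjusted p = 0.0397) and MPP (-0.91, 7.448e-05). Late against early in ST, Nop56 had -0.94 (edgeR adjusted p = 0.0839), and it was called with the block (-0.92, 0.0432) and by DESeq2 (-0.90, 0.0302). The methyltransferase Fbl, the pseudouridine synthase Dkc1, the snoRNP chaperone Nolc1 and the acetyltransferase Nat10 also had negative late changes in each cell type, from -3.92 (Nat10 in ST) to -0.80 (Nat10 in MPP), none called. Nat10 had no count in ST of young mice 1 to 3 at 12 h. This was at least 156-fold lower than its mean of 44.7 CPM at 0 h, with 3 counts over the 3 libraries taken as the floor. That time point alone did not pass (edgeR adjusted p = 0.125). The ST libraries of young mice 1, 2 and 3 at 12 h had 12, 3 and 13 members at 0. Nat10 was also at 0 in ST of young mouse 1 at 0.5 h.

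**Figure D3:**
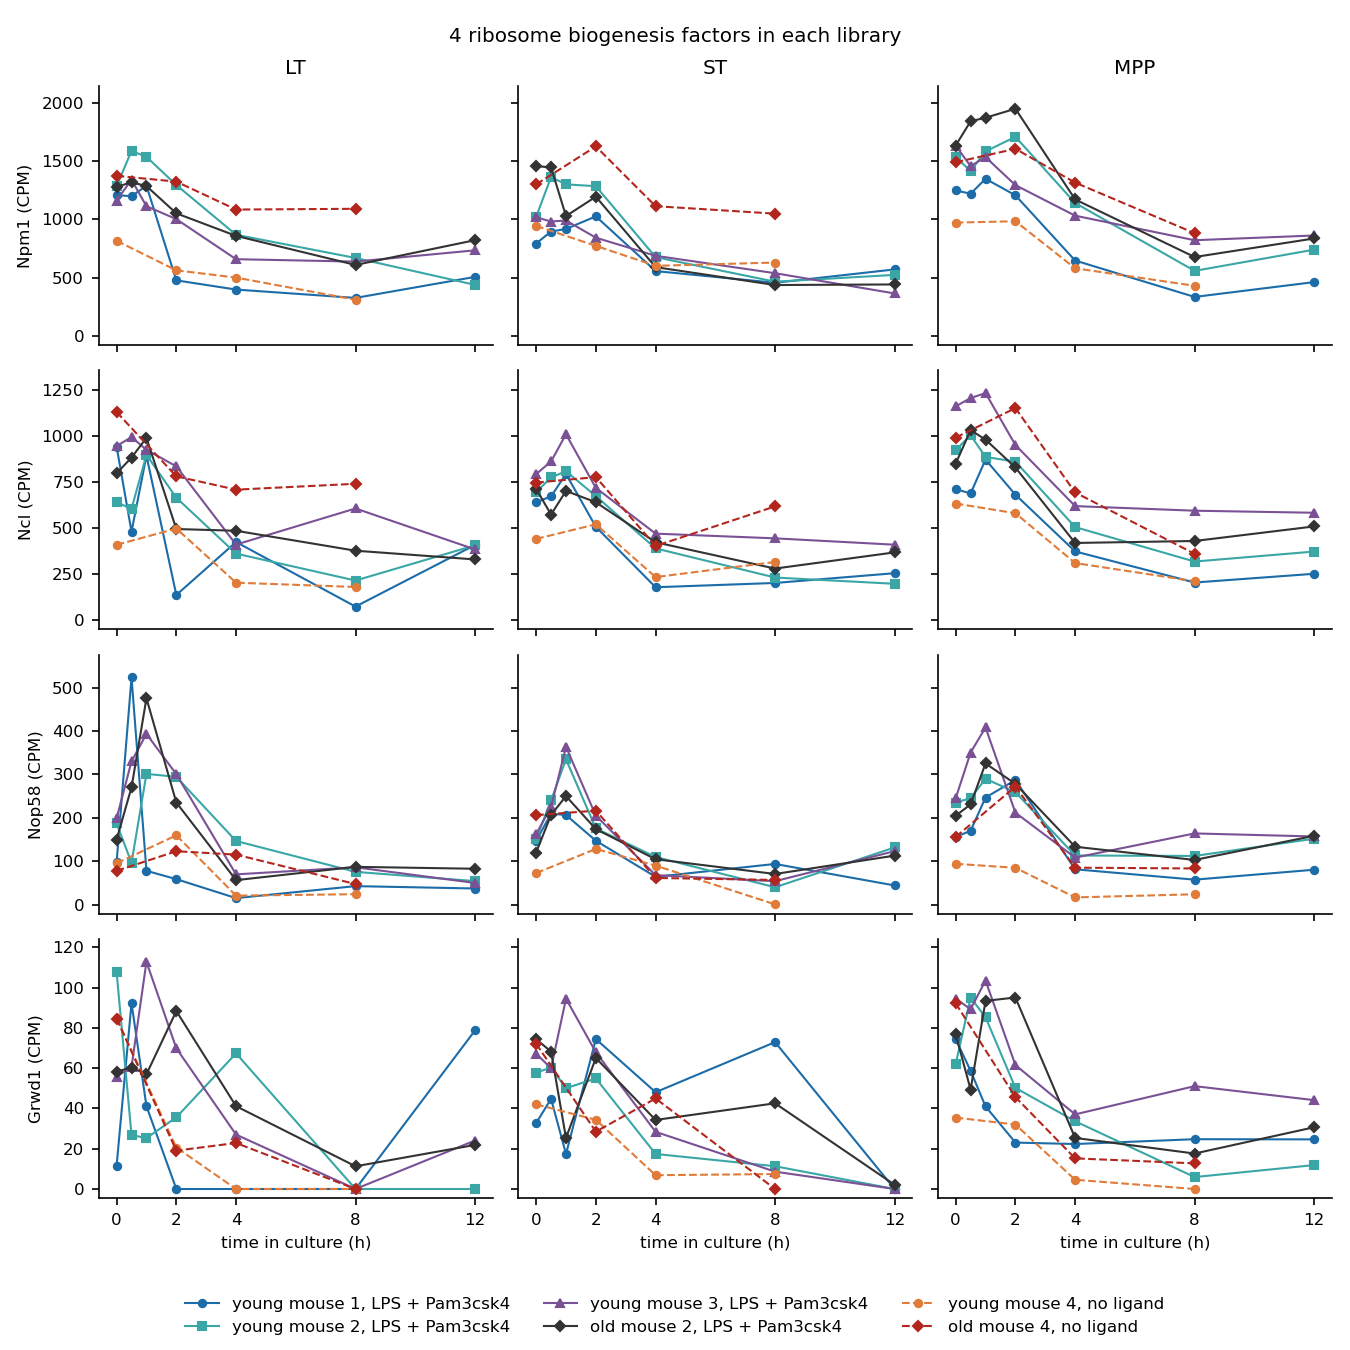
Levels of Npm1, Ncl, Nop58 and Grwd1 (CPM, vertical axis) against hours of culture in each of the 108 libraries, with a line for each mouse and a column of panels for each cell type. Npm1, Ncl and Nop58 are lower from 4 h on in nearly all courses, and Grwd1 reaches 0 in several LT and ST libraries.

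Grwd1, a WD-repeat protein of the nucleolus that binds histones and takes part in large subunit assembly, was the member with the largest fitted late change in LT and ST, and it was also at 0 in several libraries of both. In LT its levels at 0, 0.5, 1, 2, 4, 8 and 12 h were 11.5, 92.4, 41.1, 0, 0, 0 and 78.7 CPM in young mouse 1. They were 108, 26.7, 25.3, 35.6, 67.4, 0 and 0 CPM in young mouse 2. In young mouse 3 they were 55.8, 60.7, 113, 69.9, 27.0, 0 and 24.1 CPM. All 3 mice were at 0 at 8 h, but young mouse 1 was higher at 12 h than at 0 h. In ST it ran from 17.4 to 94.5 CPM (median 58.9) over 0 to 2 h and from 0 to 72.9 CPM (median 11.3) over 4 to 12 h, and was at 0 in all 3 mice at 12 h. The ST library of young mouse 3 at 12 h was the shallowest of all, with 990801 counts, 8346 detected genes and 13 members at 0. Stimulated MPP of the 3 young mice had no library at 0 and ran from 23.1 to 104 CPM (median 68.2) and then from 5.93 to 51.1 CPM (median 24.7).

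Against the 0 h mean, Grwd1 was at least 221-fold lower in LT at 8 h and at least 183-fold lower in ST at 12 h, with the same floor. Both time points passed alone (edgeR adjusted p = 0.00631 and 0.00874), when 0.0512% and 0.175% of all genes were called lower. The floor covers counting error only, and many members were at 0 in some of these libraries. In LT at 8 h, young mice 1, 2 and 3 had 6241, 7547 and 11501 detected genes and 23, 13 and 1 members at 0. The late contrast against 0 h gave -4.15 ± 1.06 in LT (edgeR adjusted p = 0.0243) and -4.06 ± 1.09 in ST (0.0417). These fitted values include the groups at 0 and so depend on the prior count. By means, LT went from 58.4 ± 48.2 CPM at 0 h to 21.9 ± 4.63 CPM late (SD, n = 3). In young mouse 1 the late mean was above 0 h in both cell types, at 26.2 against 11.5 CPM in LT and 40.3 against 32.7 CPM in ST, while it was below 0 h in young mice 2 and 3. In MPP each of the 3 mice had a lower late mean, from 74.4 to 23.9, 62.1 to 17.2 and 94.6 to 44.1 CPM. The MPP change of -1.31 was not called by edgeR but was by limma voom (-1.66, adjusted p = 0.00456). The LT and ST calls were lost, with changes of -4.15 to -3.50 in LT and -4.09 to -3.62 in ST, with detected genes as a covariate (adjusted p = 0.0603 and 0.105), in the compared groups alone (0.725 and 0.1999), without young mouse 2 (0.499 and 0.446) and without young mouse 3 (0.104 and 0.223).

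The other large subunit factors had late changes of -2.15 (Ppan) to -0.53 (Pes1) in LT, -2.63 (Rrp1b) to 0.22 (Bop1) in ST and -1.35 (Rrp1b) to 0.11 (Bop1) in MPP, none called. Pes1 and Bop1 form with Wdr12 the PeBoW complex of large subunit processing. Pes1 in LT ran from 0 to 274 CPM (median 111) over 0 to 2 h and from 2.05 to 155 CPM (median 95.6) over 4 to 12 h. Bop1 in MPP ran from 33.4 to 142 CPM (median 106) and then from 56.7 to 186 CPM (median 117). These pairs of ranges lay on top of each other, and neither gene followed the sum. Bop1 had a positive late change in ST and MPP, and its sign was reversed in MPP with DESeq2's size factors (-0.02). Nop2, an rRNA methyltransferase, had late changes of -0.75, -1.22 and -0.86 in LT, ST and MPP.

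In the small subunit group no member was called in a late contrast, and this role held most of the positive changes. Utp20 (0.91), Heatr1 (0.84), Bysl (0.15) and Ltv1 (0.14) had positive late changes in LT, none called. In MPP, Utp20 and Heatr1 had negative ones (-1.49 and -0.77). Wdr43, a processome protein, ran in MPP from 66.8 to 174 CPM (median 108) over 0 to 2 h and from 33.5 to 106 CPM (median 57.1) over 4 to 12 h. Its late changes were -1.17, -1.45 and -0.79. Ltv1, which helps to mature and export the small subunit, ran in MPP from 30.4 to 151 CPM (median 74.1) and then from 30.7 to 83.7 CPM (median 64.6), with nearly the same lowest value.

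The polymerase I subunits varied widely between libraries. Polr1a, the largest subunit, ran in ST from 1.26 to 76.3 CPM (median 39.9) over 0 to 2 h and from 0 to 32.7 CPM (median 11.3) over 4 to 12 h. Polr1b, which completes the active centre, ran in ST from 4.01 to 153 CPM (median 50.8) and then from 0 to 52.0 CPM (median 17.8). Their ranges overlapped. Late changes were -0.92, -1.53 and -0.45 for Polr1a in LT, ST and MPP and -1.68, -2.78 and -1.91 for Polr1b, none called. limma voom called Polr1b lower in each cell type (adjusted p = 0.0187, 0.019 and 0.00102).

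Across single libraries, few members separated completely. In ST 3 members (Nop58, Ncl and Npm1, 6.98% of members) had all 9 late libraries below all 12 libraries of 0 to 2 h, against 0.0804% of all genes. In MPP there were 2 (Ncl and Npm1, 4.65%) against 0.351%, and in LT 0 against 0.0292%. No member was higher in all late libraries. This split was also chosen after seeing the data. A gene at 0 in any library of 0 to 2 h cannot pass it as lower. Npm1, Ncl and Nop58 had means of 998, 608 and 157 CPM over all libraries, so these shares depend also on the level of a gene.

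The 3 cell types were compared by their late changes. Against MPP, no member's late change differed in LT or ST (0 called, 0 at an unadjusted p under 0.05, and 0.0% of all genes called), and the medians of the difference were -0.24 and -0.08 against -0.24 and -0.21 over all genes. DESeq2 called 0 members in LT and 1 in ST, and limma voom called 0. Grwd1, called in LT and ST and not in MPP by edgeR, was therefore not shown to differ between them.

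**Figure D4:**
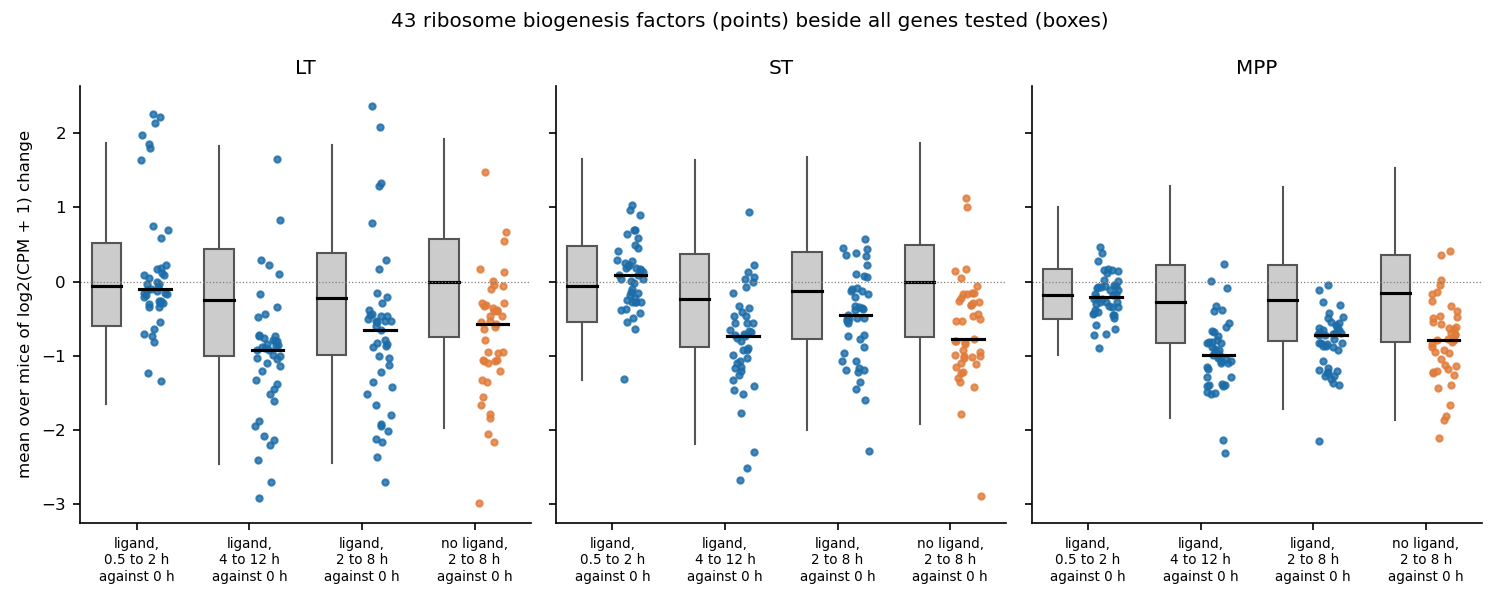
Changes of the 43 members and of all genes tested (mean over mice of the log2(CPM + 1) change, vertical axis) for each comparison and cell type, with a point for each member, a box for the quartiles of all genes, whiskers to their percentiles 5 and 95, and black lines at the medians. The median of the members lies below that of all genes at late times and in unstimulated culture, and near it early, while the spreads overlap throughout.

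Culture without ligand gave a fall of the same direction. In LT of young mouse 4 the members' share went from 0.362% at 0 h to 0.326%, 0.177% and 0.155% at 2, 4 and 8 h, and in old mouse 4 from 0.639% to 0.510%, 0.374% and 0.360%. In ST it went from 0.385% to 0.308%, 0.239% and 0.213% in the young mouse and from 0.580% to 0.580%, 0.351% and 0.354% in the old one. In MPP it went from 0.410% to 0.346%, 0.204% and 0.170% in the young mouse and from 0.648% to 0.680%, 0.423% and 0.273% in the old one. In all 6 courses the values at 4 and 8 h were below those at 0 and 2 h. Detected genes went down beside it in young mouse 4 LT, from 10469 to 8845, and in old mouse 4 LT from 11597 to 10114.

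Over 2, 4 and 8 h without ligand, 38, 38 and 39 of the 43 members had negative changes in LT, ST and MPP, with medians of -0.82, -0.60 and -0.78 against -0.06, -0.07 and -0.14 over all genes. None was called by edgeR, when 0.0347%, 0.0417% and 0.0278% of all genes were called lower, and 3, 1 and 1 members had an unadjusted p under 0.05. limma voom called 1, 1 and 4, and DESeq2 1, 0 and 0, and the shares of all genes called by these tools are not given here. Members lower in both mice numbered 24 in LT (55.8% against 29.1% of all genes), 27 in ST (62.8% against 29.5%) and 36 in MPP (83.7% against 36.4%). Npm1 in young mouse 4 LT went from 816 CPM through 562 and 500.2 CPM to 310.4 CPM, and in old mouse 4 LT from 1372 CPM through 1323 and 1083 CPM to 1090 CPM. Grwd1 in LT went from 84.8 to 20.6, 0 and 0 CPM in young mouse 4 and from 84.7 to 19.1, 22.8 and 0 CPM in old mouse 4. Both mice ended at 0, and its change was -5.31 with an adjusted p of 0.213.

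The difference of the 2 courses was tested over the shared times. With the ligands over 2 to 8 h, members had medians of -0.55, -0.33 and -0.49, and 0 were called by edgeR (2, 0 and 0 at an unadjusted p under 0.05) when 5.91%, 4.37% and 1.69% of all genes were called in either direction. The difference of the changes, stimulated minus unstimulated, had medians of 0.32, 0.36 and 0.14 against -0.02, 0.07 and 0.17 over all genes. Of the members 0 were called in LT, ST and MPP (1, 0 and 0 at an unadjusted p under 0.05), against 0.0278%, 0.0486% and 0.0833% of all genes, and DESeq2 and limma voom also called 0. Each course was set against the 0 h libraries of its own mice, and the mice differ between the courses, so the ligands and the mice cannot be told apart here.

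Old mouse 2, the stimulated old mouse, went the same way. Its LT share was 0.578%, 0.575%, 0.595%, 0.493%, 0.326%, 0.299% and 0.315% over the 7 times, with 11366 to 13505 detected genes. Its ST share went from 0.519% at 2 h to 0.3005% at 4 h and its MPP share from 0.659% to 0.370%. Late means were below 0 h for 41 of 43 members in LT, 39 in ST and 40 in MPP (95.3%, 90.7% and 93.0%), against 53.8%, 51.6% and 55.2% of all genes. Nop58 in its LT stood at 150, 270, 475, 235, 56.4, 87.1 and 82.7 CPM. As in young mouse 3, this gene was above its 0 h level at 0.5 to 2 h and below it afterwards.

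Before culture, most members had lower estimates in LT and ST than in MPP, and none was called. Within each of the 4 young mice the share at 0 h was lower in LT and in ST than in MPP. It was 0.512%, 0.506%, 0.608% and 0.362% in LT, 0.379%, 0.495%, 0.536% and 0.385% in ST and 0.531%, 0.661%, 0.742% and 0.410% in MPP of young mice 1 to 4. The means were 0.497% ± 0.101 in LT, 0.449% ± 0.0790 in ST and 0.586% ± 0.146 in MPP (SD, n = 4). Detected genes at 0 h were also fewer in LT and ST than in MPP of the same mouse. They numbered 10101, 12319, 12155 and 10469 in LT and 10599, 12510, 12564 and 11347 in ST of young mice 1 to 4. MPP had 13407, 13253, 13281 and 11912, and the part of this in the shares was not tested. Changes against MPP were negative for 34 of 43 members in LT (median -0.24, all genes -0.03) and for 40 of 43 in ST (median -0.31, all genes 0.01). None was called, nor was any of the other genes (0.0%). At an unadjusted p under 0.05 there were 0 members in LT and 2 in ST, Ebna1bp2 (-0.65), a large subunit factor, and Npm1 (-0.51), and DESeq2 and limma voom called 0.

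Age was compared at 0 h with 2 old and 4 young mice. The share was 0.608% ± 0.0435 in old LT (SD, n = 2), 0.569% ± 0.0162 in ST and 0.649% ± 0.0019 in MPP. The young mice ran from 0.362% to 0.608% in LT, so that the 2 old mice, at 0.578% and 0.639%, lay within or just above them. In ST both old mice, at 0.557% and 0.580%, lay above all 4 young mice (0.379% to 0.536%), and in MPP, at 0.650% and 0.648%, within them (0.410% to 0.742%). Granule shares also differed at 0 h in ST, at 2.20% and 1.82% in old mice 2 and 4. They were 5.50%, 3.48%, 0.0158% and 6.09% in young mice 1 to 4. Their part in the members' shares was not tested. Changes were positive for 34, 34 and 32 of 43 members in LT, ST and MPP, with medians of 0.24, 0.37 and 0.10 against 0.01, -0.03 and -0.04 over all genes. edgeR called none of them and none of all genes (0.0%), with 1, 1 and 0 members at an unadjusted p under 0.05 (Rrp1b, 1.69, in LT and Imp4, 0.88, in ST), and DESeq2 and limma voom called 0 members.

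Other genes of the pathway were taken from a list of 108 further ribosome biogenesis factors. In the late contrast 86, 81 and 89 of them had negative changes in LT, ST and MPP, with medians of -0.72, -0.41 and -0.42 against -0.44, -0.42 and -0.26 over all genes, so that the ST median was that of all genes. In LT 1 of 108 was called lower, when 2.27% of all genes were, and it was Naf1, an assembly factor of H/ACA snoRNPs (-5.84 ± 1.59, edgeR adjusted p = 0.0363). Late against early, 3 were called lower in LT (Mki67ip, Nhp2 and Rsl1d1), 2 in ST (Gltscr2 and Naf1) and 0 in MPP, and none higher, when 1.77%, 1.82% and 0.431% of all genes were called lower. Over 2 to 8 h with the ligands, Eif6 (0.95) and Sbds (1.26), which act in late large subunit maturation, were called higher in LT. There 1.79% of all genes were called higher. Trmt112 (-0.88) was called lower in LT and Naf1 (-4.005) lower in ST, when 4.12% and 2.77% of all genes were. These few calls among the 108 lay near or below the shares of all genes. These genes were named after their values were seen.

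The 55 cytosolic ribosomal proteins, which these factors assemble into subunits, also took a smaller share of counts in culture. Over 2 to 8 h their mean share was below that at 0 h in all 6 courses without ligand, at 0.847 to 0.986 times (median 0.927), where the members were at 0.585 to 0.738 times (median 0.653). In the 12 stimulated courses the ribosomal proteins were at 0.667 to 0.840 times (median 0.761) and the members at 0.401 to 0.805 times (median 0.673). In LT of old mouse 4, for example, the ribosomal protein share was 7.55%, 7.39%, 7.20% and 6.84% at 0, 2, 4 and 8 h.

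On the TMM scale of the fits the direction of the ribosomal proteins without ligand was different from that of their share of counts. There only 15, 6 and 8 of 55 had negative changes in LT, ST and MPP, with medians of 0.06, 0.14 and 0.13 and 0 called, so their direction without ligand depends on the scaling. The members had negative medians on the same scale (-0.82, -0.60 and -0.78). With the ligands all 55 had negative late changes, with medians of -0.50, -0.73 and -0.54, and 0 called (10, 23 and 8 at an unadjusted p under 0.05). Late against early 1, 7 and 0 were called lower of the 55, when 1.77%, 1.82% and 0.431% of all genes were. The stimulated minus unstimulated change was negative for 52, 53 and 53 of the 55 (medians -0.26, -0.45 and -0.29) and for 15, 16 and 17 of the 43 members. edgeR called 0 of the 55 in each cell type (0 at an unadjusted p under 0.05), so no single gene was shown to differ.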

How the data were processed

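RNA of LT, ST and MPP from 4 young and 2 old mice was analysed. The authors deposited expected counts per gene symbol, estimated with RSEM on mm9 per the submitters' processing notes; the version and annotation are not given in the sources used here. Of 127 deposited libraries 6, with 7 to 41 counts, were left out as under 1000 counts. Repeats were summed and rounded to 108 libraries (12 of several, up to 3), and CPM was computed from the totals. The column names hold a different date for each stimulated mouse and none for the unstimulated ones; what the date marks is not given, so date and mouse cannot be told apart. The labels hold no dates: mouse numbers were joined to columns through the times and numbers of repeats that the labels give each mouse. Another join of young mice 1 to 3 would rename their courses and leave the tests between groups as they are. Floors cover counting error only.

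Members and lists were chosen with earlier results of these data known. Levels per library are given for members called in a late contrast, for the 2 members with the highest mean CPM in each role, and for Grwd1. Symbols are matched to mm9 rows, while promoter windows come from GRCm38.p6, so no position of the windows was joined to the counts.

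Counts were tested with edgeR 4.0.16 (TMM, filterByExpr, quasi-likelihood, Benjamini-Hochberg over all genes at 0.05) in R 4.3.3. The stimulated young mice gave 63 libraries and 13678 genes, the courses with and without ligand 72 and 14401, cell types at 0 h 12 and 11568, ages at 0 h 18 and 12983. All 43 members passed the low-count filter in each fit. Alternatives were DESeq2 1.42.0, limma 3.58.1 voom with quality weights, DESeq2 size factors, no filter, a mean of at least 5 CPM, mouse as a replicate block, the compared groups alone, 1 repeat in place of the sum, at least 8000 detected genes, detected genes as a covariate, and leaving out each mouse. The steps were tested on simulated data. Same-numbered libraries come from the same animal, and their residuals correlated at a mean r of 0.191, 0.0678 and 0.407 in young mice 1, 2 and 3, against -0.127, -0.0516 and -0.208 with other mice. Python 3.11.15 with matplotlib 3.10.9 made the figures.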

Additional observations from a re-analysis of the deposited data

How the results depend on the processing

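Of 302 recounts of called members, 256 stayed within 1.5 times the first count and 46 did not. Early stimulation, the comparison of courses with and without ligand, and the comparisons of cell types and ages at 0 h called 0 members under each alternative run. Late against 0 h, edgeR called 2, 1 and 0 members in LT, ST and MPP. DESeq2 called 2, 3 and 1, limma voom 9, 11 and 15, DESeq2's size factors in edgeR 2, 1 and 1, no filter 1, 1 and 0, the replicate block 4, 3 and 2, libraries of at least 8000 detected genes 1, 2 and 1, the detected-gene covariate 0, 0 and 0, and the compared groups alone 0, 0 and 2. Leaving out 1 mouse gave 0 to 8 in LT, 0 to 1 in ST and 0 in MPP. Late against early, where edgeR called 3, 4 and 3, DESeq2 called 5, 9 and 3, voom 3, 7 and 12, the block 5, 7 and 3, at least 8000 detected genes 3, 7 and 4, the covariate 5, 4 and 3, and the compared groups alone 0, 4 and 9, and leaving out 1 mouse gave 0 to 9, 0 to 5 and 0 to 3. DESeq2 called 1 member for the late change of ST against that of MPP, and 1, 0 and 0 without ligand in LT, ST and MPP, where edgeR called 0. There voom called 1, 1 and 4, at least 8000 detected genes gave 1 in LT, and leaving out young mouse 1 or old mouse 4 gave 0 to 1 in LT. Calls over all genes are given below for the late contrast against 0 h under some settings, and counts without them were not read against all genes. The cause of these differences between settings was not tested. The block changed no call in the other comparisons, and no block fit was possible for age, since each mouse has 1 age.

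Over all genes the late calls numbered 393, 215 and 73 in LT, ST and MPP by edgeR, 921, 1063 and 347 by DESeq2, 1261, 1032 and 3326 by voom, 1175, 1100 and 673 with the block, and 1, 9 and 5 without young mouse 2. The late median of all genes was -0.44, -0.42 and -0.26. It became 0.09, 0.11 and 0.16 with the covariate, under which 30, 27 and 31 of 43 members were negative, and -0.38 in MPP with DESeq2's size factors.

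Single members kept direction and call in 769 of the recomputed values, 33 gained a call and 34 lost one. None of the 22 that changed sign was called under that setting, and the cause was not tested. Late against 0 h, Bop1 in MPP was -0.021 with DESeq2 and -0.021 with its size factors, and Ltv1 in ST was -0.99 with voom. Leaving out 1 mouse gave Bop1 in ST -0.25 (without young mouse 2) to 0.63, and Ltv1 in ST -0.16 (without young mouse 3) to 0.215. With the covariate Polr1b, Polr1a, Pes1 and Wdr43 in LT were 0.063, 0.64, 0.12 and 0.57, Pes1 in ST 0.11, and Polr1a and Wdr43 in MPP 0.56 and 0.14. Late against early, Pes1 in LT was 0.087 with voom, Polr1a in MPP 0.11 with the block, and Bop1 in ST 0.037 with at least 8000 detected genes. Leaving out 1 mouse gave Polr1a in MPP -0.514 to 0.093 (without young mouse 2), and Bop1 in ST -0.396 to 0.18 (without young mouse 3). With the covariate Polr1b and Pes1 in LT were 0.79 and 0.008, Pes1 and Bop1 in ST 0.057 and 0.14, and Polr1a in MPP 0.47. Members at 0 were not confined to shallow libraries. The shallowest, of 990801 counts and 8346 detected genes, had 13 at 0. Young mouse 1 LT at 8 h, of 2929425 counts and 6241 detected genes, had 23.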
